A study of Mus musculus with 4 samples.

Results

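Inhba, Tgfb1, Tgfb3, Tgfbr1, Tgfbr2, Smad2, Smad3, Smad4, Smad6 and Smad7, genes of the activin and transforming growth factor beta (TGF-β) pathway, were followed through the LPS response of mouse macrophages. These 10 genes were chosen by name, with earlier results of these data known. All 10 were found among the 54532 genes of the deposited table. RNA sequencing of polyadenylated RNA gave 4 libraries of bone marrow-derived macrophages, grown for 6 days from the marrow of C57BL/6 animals 6 to 8 weeks old. The culture held 20% L929-conditioned medium, which supplies macrophage colony-stimulating factor. All groups carried Fbxw7 alleles flanked by loxP sites (Fbxw7 f/f). The titles say only WT and KO and name no allele. They are read here as Fbxw7 f/f and LysM-cre Fbxw7 f/f. In the latter, the lysozyme gene Lyz2 drives Cre across the myeloid lineage. The FBXW7 protein selects substrates for a ubiquitin ligase. One library of each title was untreated and 1 received lipopolysaccharide (LPS), the bacterial ligand of TLR4, for 3 h at a dose that the labels leave out. With 1 library per group, no comparison of a pair of libraries has a replicate check, and its interval covers counting error only.

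The genotype labels conflict, which bears on every comparison of titles and of treatments. The genotype tags put Fbxw7 f/f on both untreated libraries and LysM-cre Fbxw7 f/f on both LPS libraries. The titles, read as above, instead cross genotype with treatment, and groups here follow the titles. By the tags, genotype and LPS treatment cannot be told apart. Fbxw7 stood at 17.9 and 17.2 CPM (counts scaled to library depth, here by the TMM method of edgeR) in the untreated libraries titled WT and KO. It stood at 9.90 and 11.7 CPM in the LPS libraries titled WT and KO. Its gene-level count thus did not separate the titles, and it was lower in both LPS libraries, which are those tagged LysM-cre. Lyz1, the lysozyme gene next to Lyz2, was at 2.86 and 2.63 CPM in the untreated library titled WT and the LPS library titled KO, and at 32.9 and 33.1 CPM in the untreated library titled KO and the LPS library titled WT. Lyz2 showed the opposite grouping, with 15253 and 18238 CPM in the first pair and 8711 and 9917 CPM in the second. The lysozyme genes thus paired the libraries across titles, and values are therefore given for every library and for all 4 pairs of an LPS with an untreated library. Total counts ran from 17610372 to 23835940 per library. Of 7 macrophage markers, 7 averaged at least 1 CPM, with summed levels of 14861 to 25315 CPM, a list that holds Lyz2. The summed level was 3.18 to 10.7 CPM for 8 neutrophil markers, 29.7 to 62.0 CPM for 7 T cell markers, 9.96 to 31.6 CPM for 5 B cell markers and 1.27 to 3.18 CPM for 6 fibroblast markers. It was 1.497 to 13.1 CPM for 5 dendritic cell markers, 0.0612 to 0.289 CPM for 6 erythroid markers and 0.136 to 3.90 CPM for 5 mast cell markers, with 1 neutrophil, 3 erythroid and 3 mast cell markers at 0 in all 4 libraries. The part of other cells in the results was not tested, and in bulk RNA fewer cells of a type and less RNA per cell cannot be told apart.

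As background, activins and TGF-βs are secreted dimers that bring a type II receptor and a type I receptor together on the cell surface. The activated type I receptor phosphorylates SMAD2 and SMAD3, which join SMAD4 and enter the nucleus to regulate transcription. SMAD6 and SMAD7 are the inhibitory members of the family and damp the signal at the receptor. In macrophages, activin A is a cytokine released upon inflammatory stimulation, and TGF-β1 is known for restraining inflammatory activation. All results below are of transcripts, and neither ligand protein nor SMAD phosphorylation was measured.

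Start-site windows from RefSeq, 250 bases before to 50 bases after a start, were used for 6 of the 10 genes (Inhba, Tgfb1, Tgfbr1, Tgfbr2, Smad3 and Smad6, with 7 windows in all, build GRCm38.p6). The sequence before the start of Inhba is shown because Inhba had the widest range of the 10 genes over the libraries, and the start of Smad6 because it alone among the windows holds the palindrome GTCTAGAC, the classical SMAD-binding sequence. The 250 bases before the start of Inhba lie at chr13:16011601-16011850 on the plus strand. The capitals mark TATAAA, the letters searched for as a TATA box, at positions -91 to -86, and whether they act as one was not tested. The 30 bases around the start of Smad6 lie at chr9:64022045-64022074 on the minus strand, and the capitals mark GTCTAGAC, which begins 4 bases before the start and ends 3 bases after it.
Inhba: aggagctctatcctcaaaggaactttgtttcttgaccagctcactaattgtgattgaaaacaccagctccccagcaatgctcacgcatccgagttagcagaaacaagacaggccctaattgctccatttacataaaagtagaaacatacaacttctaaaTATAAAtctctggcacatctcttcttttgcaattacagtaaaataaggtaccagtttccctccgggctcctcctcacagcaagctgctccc
Smad6: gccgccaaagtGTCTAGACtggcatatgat
Across all 32851 windows of this length, searched on both strands, GTCTAGAC was present in 0.213% and TATAAA in 13.6%. Neither TGANTCA (AP-1, in 7.81% of all windows), TGACGTCA (CRE, in 1.79%) nor an NF-kB consensus (in 0.411%) matched in the 7 windows, which says only that these letters are not there. GC content was 47.7% in the Inhba window, 77% for Tgfb1, 67.7% for Smad3, 66.3% for Smad6, 59% for Tgfbr2 and 74.7% and 52% for the 2 windows of Tgfbr1, against a median of 52.7% over all windows. These matches describe the sequence and are not measured binding sites.

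**Figure D1:**
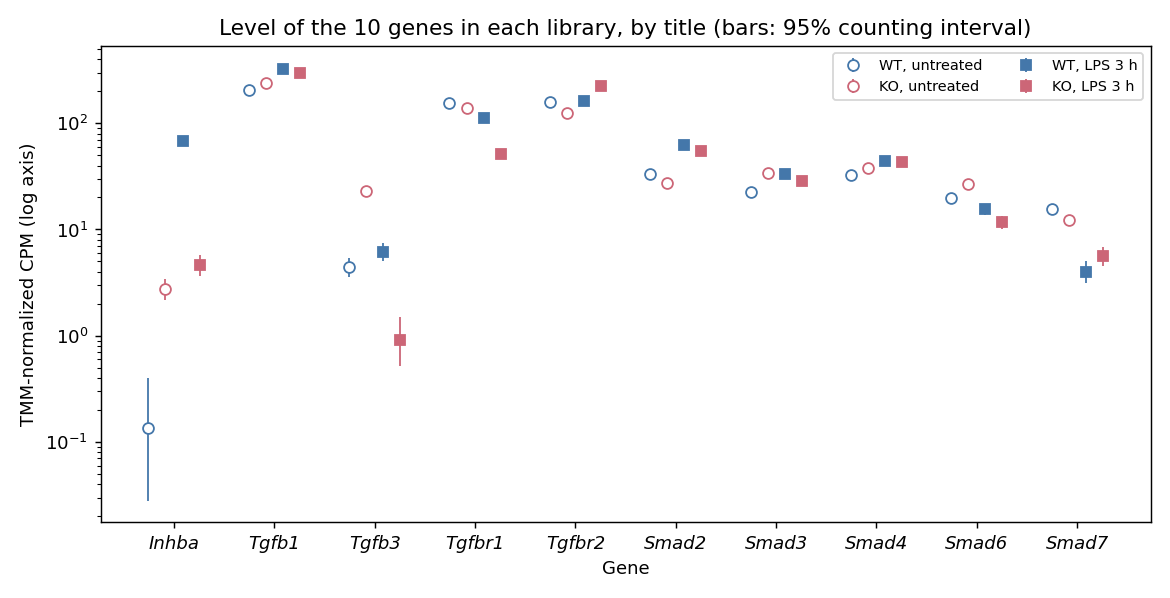
Level of each of the 10 genes (horizontal axis) in TMM-normalized CPM on a log axis, with 1 point per library, marked by title and treatment, and bars for the 95% counting interval. Inhba runs from 0.136 to 68.0 CPM and Tgfb3 from 0.918 to 22.9 CPM, while the points of Smad4 lie between 32.3 and 43.8 CPM.

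Of the 10 genes, the ligand genes Inhba and Tgfb3 had the widest range over the libraries. Inhba encodes the βA subunit of activin A. Untreated, it had 3 counts (0.136 CPM) under the title WT and 76 (2.75 CPM) under the title KO. With LPS, it had 1167 counts (68.0 CPM) under the title WT and 75 (4.59 CPM) under the title KO. Both LPS libraries thus lay above both untreated libraries, with the LPS library titled WT far above the rest and the untreated library titled WT close to 0. Between libraries titled WT, Inhba was 499-fold higher after LPS (95% counting interval 170 to 2425, resting on 3 untreated counts). Between libraries titled KO, it was 1.67-fold higher (1.20 to 2.33), under the 2-fold rule. Across titles, the LPS library titled WT exceeded the untreated library titled KO 24.7-fold (19.6 to 31.6), and the LPS library titled KO exceeded the untreated library titled WT 33.7-fold (11.1 to 167). The gene lies at chr13:16011851-16031621 (mm10, plus strand) and overlaps 2 antisense genes that had 15 counts in all. Whether the counting used strand is unstated.

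Tgfb3, encoding the ligand TGF-β3, had 98 counts (4.44 CPM) under the title WT and 634 (22.9 CPM) under the title KO before LPS. The LPS libraries held 105 counts (6.11 CPM) under the title WT and 15 (0.918 CPM) under the title KO. The untreated library titled KO stood highest and the LPS library titled KO lowest, and the treatments overlapped, since the LPS library titled WT lay above the untreated one. Between libraries titled KO, Tgfb3 was 24.98-fold lower after LPS (15.03 to 44.9), and between libraries titled WT it was 1.38-fold higher (1.03 to 1.83), a direction that turned with library totals as the scale (log2 -0.15). Across titles it was 3.75-fold lower in the LPS library titled WT than in the untreated library titled KO (3.05 to 4.65). It was 4.84-fold lower in the LPS library titled KO than in the untreated library titled WT (2.80 to 8.98). Tgfb3 lies at chr12:86056745-86079041 (minus strand) and overlaps 3 genes of the plus strand with 646 counts in all, which makes its low counts less certain.

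Tgfb1, which encodes TGF-β1, was the most abundant of the 10 genes per length in each library, at 39.6 and 46.2 FPKM untreated and 64.8 and 60.7 FPKM after LPS (titles WT and KO in this order, a measure scaled by the authors for gene length and depth). On the CPM scale it was at 204.002 and 242 untreated and 325 and 298 after LPS, so the LPS libraries lay above the untreated ones. It was 1.60-fold higher after LPS between libraries titled WT (1.53 to 1.66) and 1.23-fold higher between libraries titled KO (1.19 to 1.28), both under 2-fold. Those ratios were near 1 with library totals (log2 0.06 and -0.16), so the direction between the KO titles depends on the scaling. At chr7:25687002-25705077 (plus strand), Tgfb1 overlaps no other gene of the table. The lowest of the 10 per length was Inhba in both untreated libraries (0.0209 and 0.414 FPKM), Smad7 in the LPS library titled WT (0.892 FPKM) and Tgfb3 in the LPS library titled KO (0.279 FPKM).

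The receptor genes went in different directions. Tgfbr1, the type I receptor for TGF-β (chr4:47353222-47414931, plus strand), was at 154 and 139 CPM in the untreated libraries titled WT and KO and at 112 and 51.0 CPM in the LPS libraries. Each LPS library lay below each untreated library, and the LPS library titled KO was the lowest. Tgfbr1 was 1.38-fold lower after LPS between libraries titled WT (1.30 to 1.46) and 2.72-fold lower between libraries titled KO (2.53 to 2.94), of which the second passed the size rule. With library totals both passed (log2 -1.07 and -1.91), so the call between libraries titled WT depends on the scaling. Tgfbr2, the type II receptor that binds TGF-β first (chr9:116084293-116175360, minus strand), was at 158 and 125 CPM without LPS, then 160.187 and 222 CPM with it. Its level hardly differed between libraries titled WT (1.01-fold, 0.964 to 1.07) and was 1.78-fold higher after LPS between libraries titled KO (1.70 to 1.87). With library totals the first of these ratios was below 1 (log2 -0.59) and the second above it (log2 0.37).

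Of the SMADs that carry the signal, Smad2 was higher with LPS. Smad2, a receptor-activated SMAD (chr18:76241580-76305731, plus strand), was at 33.1 and 27.3 CPM in untreated cells against 63.0 and 54.7 CPM with LPS, in libraries titled WT and KO. Both LPS libraries lay above both untreated libraries, and the responses of the titles differed by less than counting error. The ratio was 1.90 (1.73 to 2.09) between libraries titled WT and 2.00 (1.82 to 2.21) between libraries titled KO, and only the second reached the 2-fold rule, at its edge. That call was lost with library totals, which gave log2 ratios of 0.32 and 0.53 in place of 0.93 and 1.00. Smad3, the other receptor-activated SMAD for these ligands (chr9:63646767-63757994, minus strand), was at 22.6 and 33.95 CPM without LPS, then 33.0 and 28.8 CPM with it. Its treatments overlapped, with the untreated library titled KO highest and the untreated library titled WT lowest, and its ratio of 1.46 (1.29 to 1.65) between libraries titled WT turned with library totals (log2 -0.07). Smad4, the common partner SMAD (chr18:73639009-73703780, minus strand), was at 32.3 and 37.8 CPM in untreated cells against 43.8 and 43.4 CPM with LPS. Its ratios were 1.36 (1.22 to 1.51) and 1.15, and both turned below 1 with library totals (log2 -0.17 and -0.27).

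Both inhibitory SMAD genes were lower in the LPS libraries. Smad7, which recruits ubiquitin ligases to the receptor (chr18:75367529-75395935, plus strand), had 344 and 343 counts (15.6 and 12.4 CPM) untreated and 69 and 92 counts (4.02 and 5.63 CPM) after LPS, in libraries titled WT and KO. Every LPS library was at least 2-fold below every untreated library. Smad7 was 3.88-fold lower after LPS between libraries titled WT (2.99 to 5.10) and 2.20-fold lower between libraries titled KO (1.75 to 2.80). Across titles it was 3.09-fold lower in the LPS library titled WT (2.38 to 4.06) and 2.77-fold lower in the LPS library titled KO (2.20 to 3.53). Smad6, which acts mainly against BMP signals (chr9:63953076-64022059, minus strand), was at 19.8 and 26.7 CPM without LPS, then 15.4 and 11.7 CPM with it. Its LPS libraries also lay below the untreated ones, by 1.28-fold between libraries titled WT (1.10 to 1.499) and 2.27-fold between libraries titled KO (1.94 to 2.68).

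**Figure D2:**
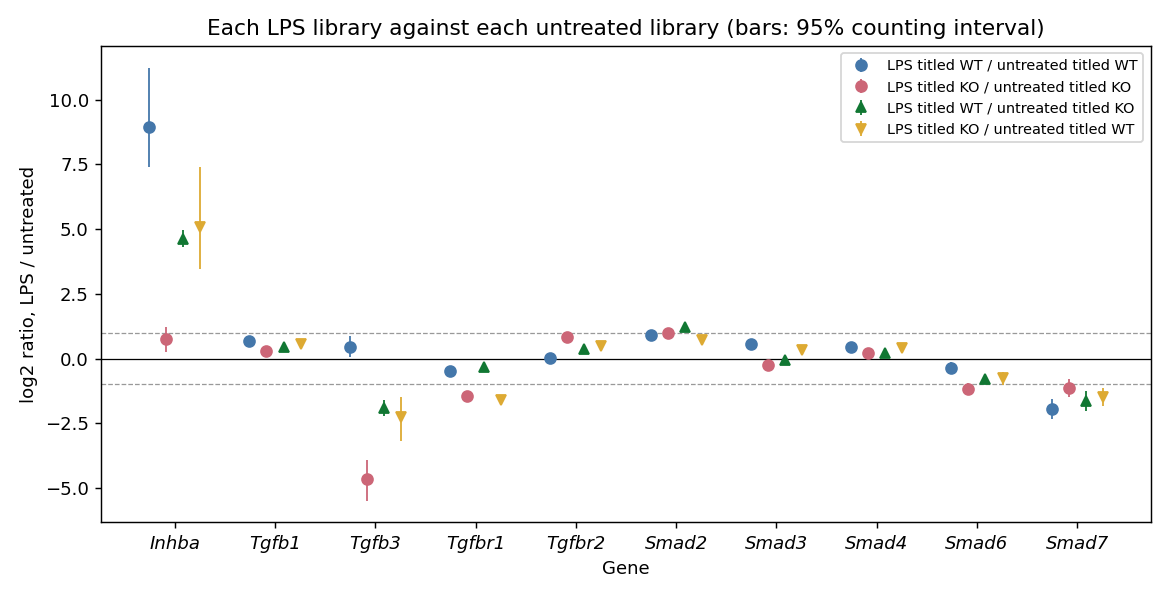
The log2 ratio of LPS to untreated (vertical axis, bars for the 95% counting interval) for each of the 10 genes, with 1 point for each of the 4 pairs of an LPS with an untreated library. Smad7, Smad6 and Tgfbr1 are below 0 in all 4 pairs, the points of Smad2 lie between 0.72 and 1.20, and those of Tgfb3 lie between -4.50 and 0.45.

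Over the 4 pairs on the TMM scale, 5 genes were higher after LPS in every pair (Inhba, Tgfb1, Tgfbr2, Smad2 and Smad4). In every pair 3 were lower (Tgfbr1, Smad6 and Smad7), and Tgfb3 and Smad3 went both ways. For Tgfbr2 the pair titled WT differed by less than counting error (1.01-fold, 0.964 to 1.07). The 4 pairs reuse the same 4 libraries and are not separate checks. The share of all genes with such a pattern, without a size threshold, was not counted. Whether 8 of 10 is more than among all genes was thus not tested. With library totals, Tgfb1, Tgfbr2 and Smad4 were lower after LPS in at least 1 of the pairs within a title, and this scale moved the median log2 of all genes by -0.60 and -0.46 in libraries titled WT and KO. By the size rule (at least 2-fold, an average over the libraries of 1 CPM or more, and a 95% counting interval that leaves out no change), 1 of the 10 genes was higher (Inhba) and 1 lower (Smad7) between libraries titled WT. Over the 12326 genes tested there, 15.4% were called higher and 15% lower. Between libraries titled KO, 1 of 10 was higher (Smad2) and 4 were lower (Tgfb3, Tgfbr1, Smad6 and Smad7), where 14.6% of all genes were called higher and 17.8% lower. The median log2 ratio of the 10 genes was 0.45 between libraries titled WT, beside -0.01 over all genes tested, and -0.02 between libraries titled KO, beside -0.07. Smad7 alone of the 10 genes was at least 2-fold below in both LPS libraries against both untreated ones, a pattern of 8.26% of all genes, and none was at least 2-fold above, a pattern of 9.92%. The count of 4 lower between libraries titled KO is above the share over all genes, and the others are near or under it. With genes chosen when earlier results of these data were known, these counts are a description only.

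Neighbouring levels mostly differed beyond counting error. Within a gene, the pairs of neighbours whose interval held 1 were the LPS and untreated libraries titled WT for Tgfbr2, the untreated library titled KO and the LPS library titled WT for Smad3, and the 2 LPS libraries for Smad4. In the authors' deposited table, the adjusted p-value for LPS was 2.61e-34 for Inhba and 0.000416 for Smad7 between libraries titled WT. Between libraries titled KO it was 4.82e-15 for Tgfb3, 0.00523 for Tgfbr1 and 0.0349 for Smad6, from a test on single libraries whose method is unstated. The authors' deposited table gave adjusted p-values of 0.102 and 0.0794 for Smad2 and 0.0571 for Smad7 between libraries titled KO.

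The libraries titled KO and WT differed most in the ligand genes Inhba and Tgfb3, and in opposite directions before and after LPS. In untreated cells, Inhba was 20.2-fold higher (6.65 to 100.1, on 3 counts in the library titled WT) and Tgfb3 5.16-fold higher (4.16 to 6.45) in the library titled KO. After LPS, Inhba was 14.8-fold lower (11.7 to 19.0) and Tgfb3 6.66-fold lower (3.86 to 12.3) in the library titled KO, and Tgfbr1 was 2.20-fold lower (2.02 to 2.38). The size rule called 2 of 10 genes higher and 0 lower in untreated cells, where 3.16% of all genes were called higher and 2.03% lower. After LPS it called 0 of 10 higher and 3 lower, where 3.42% of all genes were called higher and 4.81% lower. Both the 2 higher and the 3 lower exceed those shares. Because the genes were chosen with earlier results of these data known, that excess is a description only. Smad3 was 1.5002-fold higher in the untreated library titled KO (1.34 to 1.68). Smad7 was 1.40-fold higher (1.01 to 1.94) and Tgfbr2 1.38-fold higher (1.32 to 1.46) in the LPS library titled KO, without reaching 2-fold. Median log2 ratios of the 10 genes were 0.23 untreated and -0.20 after LPS, beside 0.03 and -0.02 over all genes tested. In the authors' deposited table, the adjusted p-values of this comparison were 9.51e-06 for Inhba and 9.48e-05 for Tgfb3 untreated, and 1.23e-11 and 0.000455 after LPS. Tgfbr1, lower by the size rule after LPS, had an adjusted p-value of 0.225 in the authors' deposited table.

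**Figure D3:**
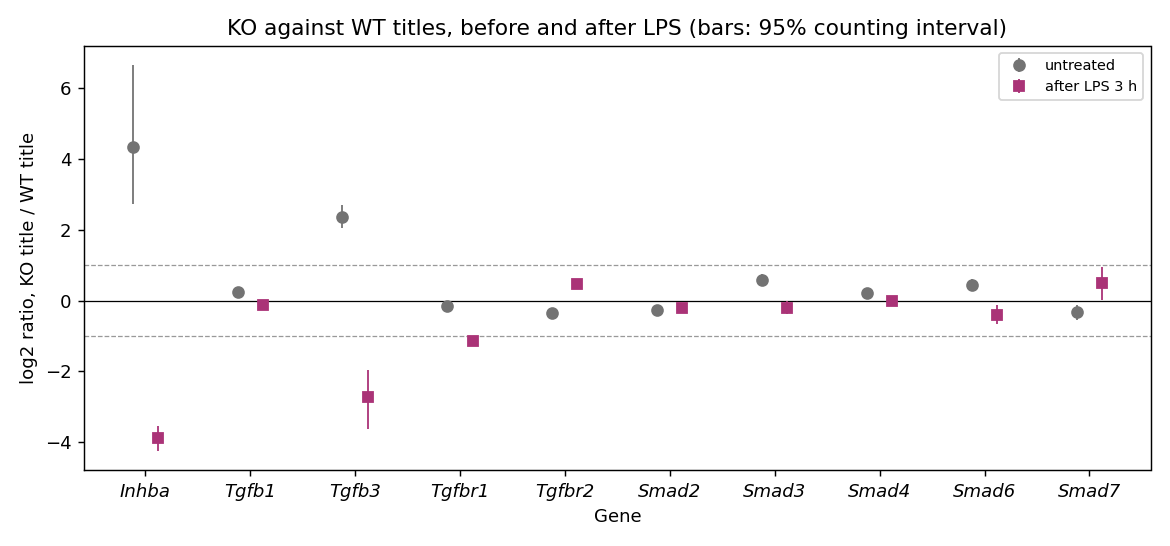
The log2 ratio of the library titled KO to the library titled WT (vertical axis, bars for the 95% counting interval) for each of the 10 genes, untreated and after 3 h of LPS. Inhba and Tgfb3 lie above 0 untreated and below 0 after LPS.

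The libraries in which Inhba and Tgfb3 stood higher within a treatment were the untreated library titled KO and the LPS library titled WT. These are also the libraries in which Lyz1 stood at 32.9 and 33.1 CPM, against 2.86 and 2.63 CPM in the others. The part of whatever sets Lyz1 apart, or of the labels, in the ratios of Inhba and Tgfb3 was not tested. The LPS response in libraries titled KO minus that in libraries titled WT was -8.22 for Inhba on the log2 scale (-9.92 to -6.53) and -5.10 for Tgfb3 (-5.94 to -4.26). It was -0.98 for Tgfbr1, -0.83 for Smad6, -0.78 for Smad3, 0.81 for Tgfbr2 and 0.82 for Smad7, and 0.07 for Smad2, whose interval (-0.12 to 0.27) alone among the 10 held no difference. By a 2-fold rule on this difference, 2 of the 10 genes were called, and 18.5% of all genes were.

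An additive edgeR quasi-likelihood model of title and treatment over all 4 libraries gave an effect of LPS common to both titles. By the genotype tags, this effect cannot be told apart from that of genotype. The model has 1 residual degree of freedom, so a gene's own error is the departure of the 4 libraries from additivity. edgeR pulls that error towards a trend over all genes, so the printed SE and p-values also rest on other genes. Of the 10 genes, 1 rose (Smad2) and 0 fell at a Benjamini-Hochberg adjusted p under 0.05 over 13989 genes, of which 9.35% rose and 5.14% fell. Smad2 rose by 1.00 ± 0.20 on the log2 scale (SE, adjusted p 0.0359 by edgeR), a call lost with library totals (0.43, adjusted p 0.164). For Smad7 the effect was -1.51 ± 0.37 (adjusted p 0.0600 by edgeR), and it passed with DESeq2 and limma-voom (adjusted p 0.0276 and 0.0492). Tgfbr1 was at -0.92 ± 0.30 (adjusted p 0.111 by edgeR) and Smad6 at -0.74 ± 0.31 (0.174). Inhba, with the largest effect of the 10, was at 4.03 ± 2.15 (adjusted p 0.257 by edgeR), and Tgfb3 at -1.90 ± 1.42 (0.395), since the responses in the titles differed. Adjusted p-values from edgeR were 0.209 for Tgfb1, 0.279 for Smad4, 0.321 for Tgfbr2 and 0.652 for Smad3. The median effect of the 10 genes was 0.27, beside -0.05 over all genes tested.

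For the title effect common to both treatments, edgeR called 0 of the 10 genes and 0 of 13989 genes in either direction (0% higher and 0% lower). At an unadjusted p under 0.05 edgeR found 39 genes, DESeq2 30 and limma-voom 62, and neither DESeq2 nor limma-voom passed a gene after adjustment. The median title effect of the 10 genes was 0.04 on the log2 scale.

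Around the 10 genes, 86 other genes of the pathway, in 7 lists by role, were looked up in the table. The size rule tested 50 of them, and LPS calls were 10 higher and 10 lower between libraries titled WT and 10 higher and 14 lower between libraries titled KO. Over all genes the shares were 15.4% higher and 15% lower, and 14.6% higher and 17.8% lower, in the same order. Their median log2 ratios were 0.23 and -0.13. In the additive edgeR model, 8 of 55 tested rose and 7 fell after LPS, with a median effect of -0.03, where 9.35% of all genes rose and 5.14% fell. KO against WT calls were 2 higher and 1 lower untreated and 5 higher and 6 lower after LPS, of the same 50 genes. The shares over all genes were 3.16% and 2.03% untreated and 3.42% and 4.81% after LPS.

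Genes that hold, bind or release latent TGF-β went both ways. TGF-β is secreted bound to a latency peptide, and integrin αvβ8 is one of its activators. Itgb8, encoding the β8 subunit, had 4 counts in each untreated library and 982 and 356 counts (57.2 and 21.8 CPM) in the LPS libraries titled WT and KO. Itgb8 was 315-fold and 151-fold higher after LPS between libraries titled WT and KO, and the size of these ratios rests on 4 untreated counts each. It rose in the additive model by 7.78 ± 0.42 (log2, adjusted p 0.00438 by edgeR). Itgav, its αv partner, was at 124 and 116 CPM in untreated cells against 339 and 261 CPM with LPS, and rose by 1.35 ± 0.23 (adjusted p 0.0264 by edgeR). Nrros, which holds latent TGF-β on the macrophage surface, fell from 266 and 277 CPM to 137 and 109 CPM (log2 -1.11 ± 0.24, adjusted p 0.0433 by edgeR), and was named after its values were seen. Thbs1, encoding thrombospondin 1, another activator, was at 469 and 1692 CPM without LPS, then 1168 and 295 CPM with it, high in the 2 libraries that were high in Lyz1. It was 2.49-fold higher after LPS between libraries titled WT and 5.74-fold lower between libraries titled KO. Ltbp2, a latent TGF-β binding protein gene, was below 3 CPM in each library and lower after LPS under both titles. Of the 11 genes of this list, 7 were tested by edgeR, and 2 rose and 1 fell.

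Among other ligands and receptors, edgeR called 1 ligand and 1 receptor gene, where 9.35% of all genes rose and 5.14% fell. The size rule tested 4 of the ligand genes. For KO against WT after LPS it called Gdf11 higher and Gdf15 and Gdf3 lower, and untreated it called 0 of them. After LPS it also called Tgfbr3 and Bambi higher and Grem1 lower in the library titled KO. Over all genes, 3.42% were called higher there and 4.81% lower. Of 21 other ligand genes, 6 were tested by edgeR and 1 rose, Gdf11 (adjusted p 0.0276 by edgeR). Gdf11 had 2 and 1 counts in untreated cells, under the floor of 3, and 22 and 73 counts with LPS. The ratios were 14.1 (3.47 to 124) between libraries titled WT and 124 (21.5 to 4945) between libraries titled KO, and rest on those few counts. Gdf15, a stress-induced ligand, was at 9.25 and 12.3 CPM without LPS, then 3.09 and 1.04 CPM with it, called lower under both titles. Gdf3 was at 11.2 and 17.9 CPM in untreated cells against 22.0 and 8.63 CPM with LPS. Among 9 other receptors tested, 1 fell in the edgeR model, Acvrl1 (ALK1, a type I receptor), from 47.7 and 49.4 CPM to 23.6 and 21.2 CPM (log2 -1.08 ± 0.21, adjusted p 0.0329). Acvr2b, an activin type II receptor, was at 1.68 and 2.82 CPM without LPS, then 0.466 and 0.734 CPM with it, called lower under both titles. Tgfbr3, the co-receptor betaglycan, was at 0.641 and 1.65 CPM in the LPS libraries titled WT and KO. Of the inhibitors, 4 were tested by edgeR and 0 passed. Bambi, a decoy receptor without a kinase domain, was at 7.66 and 4.27 CPM in untreated cells against 16.8 and 54.2 CPM with LPS (log2 2.44 ± 0.69, adjusted p 0.0803 by edgeR), 2.20-fold and 12.7-fold higher under titles WT and KO. Grem1, a secreted BMP antagonist, was at 0.317 and 1.45 CPM without LPS, then 4.31 and 1.35 CPM with it.

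Among other SMADs, Smad9 (SMAD8, of the BMP branch) had 34 and 22 counts untreated and 0 in both LPS libraries. Against a floor of 3 counts per library this is at least 8.83-fold lower between libraries titled WT and at least 4.33-fold lower between libraries titled KO. Smad9 was the 1 of 3 genes of this list that fell in the edgeR model (adjusted p 0.0426), and its mean was under 1 CPM. Of 16 SMAD regulators tested, 2 rose and 2 fell. Skil, encoding the corepressor SnoN, rose from 135 and 140 CPM to 499.5 and 448 CPM (log2 1.82 ± 0.25, adjusted p 0.0153 by edgeR). Usp15, a deubiquitinase of the receptor complex, rose from 65.3 and 58.9 CPM to 117 and 154 CPM (adjusted p 0.0435 by edgeR). Tab1, which links the pathway to the kinase TAK1, fell from 24.1 and 21.7 CPM to 5.71 and 5.94 CPM (adjusted p 0.0184 by edgeR). Ski, a corepressor related to Skil that was named after its values were seen, fell by 1.04 on the log2 scale (adjusted p 0.0419 by edgeR). Pmepa1, which binds receptor-activated SMADs and is itself a TGF-β target, was at 2.81 and 3.22 CPM in untreated cells against 0.641 and 1.41 CPM with LPS.

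**Figure D4:**
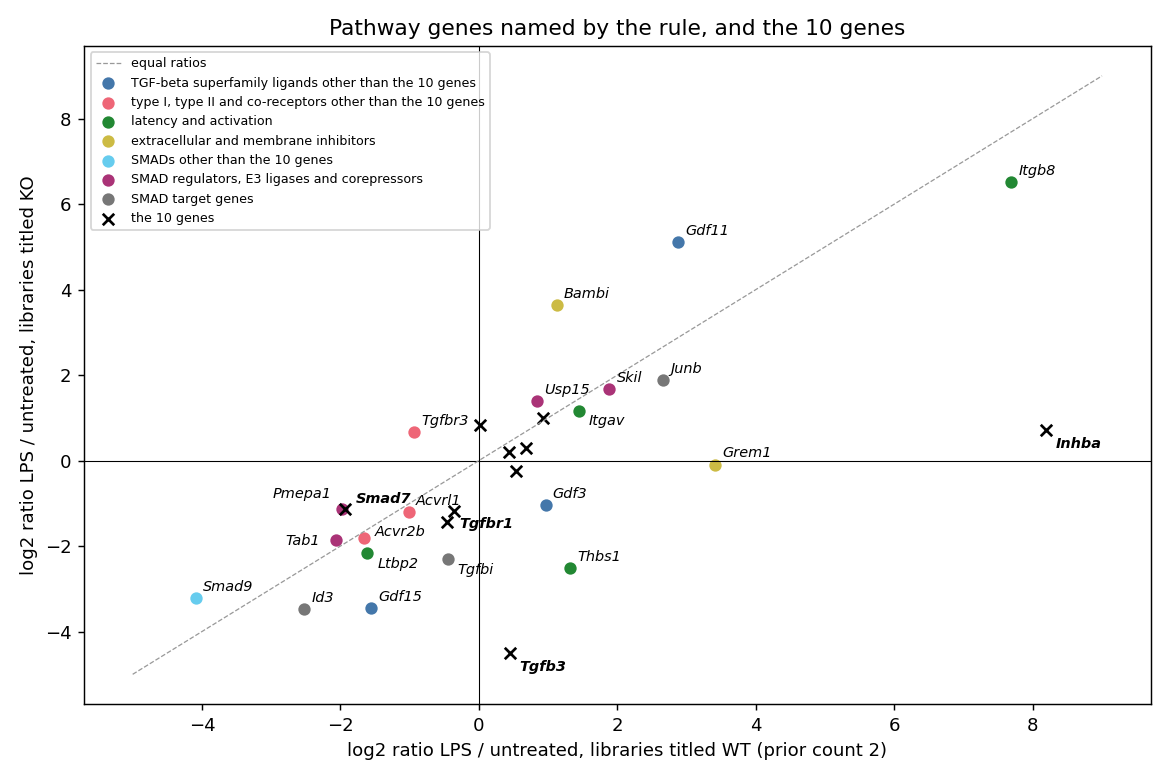
The log2 ratio of LPS to untreated in libraries titled WT (horizontal axis) and KO (vertical axis), with a prior count of 2, for the named pathway genes by list (coloured points) and the 10 genes (crosses), and a dashed line of equal ratios. Inhba, Tgfb3, Thbs1 and Grem1 lie far below the line, and Itgb8 lies at the upper right.

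Genes known as SMAD targets moved both ways. Of 10 tested in the edgeR model, 3 rose (among them Junb and Cdkn1a) and 2 fell (Id3 and Id2). Junb, an AP-1 subunit gene, rose from 119.6 and 212 CPM to 759 and 785 CPM (adjusted p 0.0161 by edgeR). Id3, an inhibitor of basic helix-loop-helix factors and a target of BMP signals, fell from 112 and 136 CPM to 19.4 and 12.1 CPM (log2 -2.97 ± 0.31, adjusted p 0.00878 by edgeR). Cdkn1a and Id2, named after their values were seen, had effects of 1.84 ± 0.29 and -1.68 ± 0.32 (adjusted p 0.0205 and 0.0316 by edgeR). Tgfbi, a TGF-β-induced matrix protein gene, was at 340.2 and 469.9 CPM in untreated cells against 249.98 and 95.03 CPM with LPS, and was called lower between libraries titled KO. Many of these genes respond to other signals of the LPS response as well, and no list is a readout of SMAD activity alone.

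The genes whose levels over the 4 libraries were closest to those of Inhba and Tgfb3 were found by the Euclidean distance of centred log2(CPM + 1) among 9386 protein-coding genes with a mean of at least 5 CPM. For Inhba they were Cxcl1, a neutrophil-attracting chemokine gene (distance 0.830), Cav1, encoding caveolin 1 (1.05), and Flrt3 (1.09). Cxcl1 was at 0.181 and 2.13 CPM without LPS, then 74.5 and 9.24 CPM with it. For Tgfb3 they were Lhfpl2 (0.322), the monocyte chemokine receptor gene Ccr2 (0.608) and the inhibitory receptor gene Cd300lf (0.660). Lhfpl2 was at 84.4 and 326 CPM in untreated cells against 90.0 and 21.1 CPM with LPS, and Ccr2 at 4.94 and 23.9 CPM without LPS, then 11.4 and 1.10 CPM with it. With 4 libraries, such likeness is a description only.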

How the data were processed

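RNA sequencing of 4 mouse macrophage libraries was analysed, 1 per group, and groups followed the sample titles. Poly-T selection of 3 µg of RNA preceded library preparation, per the labels' protocols. The submitters' processing notes name HISAT2 2.0.5 and mm10, with no further detail. The authors' table holds read counts and FPKM per gene, per the file headers, and also the authors' log2 fold change and adjusted p-value for each comparison, per the file headers. No source used here names the counter, its strand setting or the authors' test. A further 8 per-sample columns stayed out of the work.

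Counts were scaled by TMM (factors 1.25, 1.16, 0.820 and 0.840 for the titles WT and KO untreated, then WT and KO after LPS). Pairs of libraries were compared by the size rule (log2 CPM with a prior count of 2, at least 2-fold, mean of at least 1 CPM, exact 95% binomial interval of the counts), with no p-value; printed folds are ratios without the prior. The additive model used edgeR 4.0.16 (filterByExpr, quasi-likelihood F test), with DESeq2 1.42.0 and limma 3.58.1 as alternatives, and the printed SE is implied by its F statistic. Other scalings, filters, thresholds and pseudocounts were tried. Scripts ran in Python 3.11.15 (SciPy 1.17.1) and R 4.3.3. Nothing in the labels says whether libraries come from separate animals.

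The genes and lists were chosen with earlier results of these data known. Named pathway genes were those called in both titled LPS comparisons in the same direction, in either KO against WT comparison, or in the additive model, at most 4 per list by size of ratio, with the 3 genes closest to Inhba and Tgfb3 and the label checks Lyz1, Lyz2 and Fbxw7. One gene of the target list is not reported here, although the counts of its list include it. Coordinates are those of the table, and 9 of the 10 genes lie at the same position in GENCODE M21.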

Additional observations from a re-analysis of the deposited data

Results flagged for a closer look

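For 4 of the genes named above, the libraries titled KO and WT differed in opposite directions before and after LPS, each past the 2-fold rule. How many of all genes did so was not counted. The difference was not tested over replicates because each group is 1 library. The log2 difference between KO and WT after LPS minus that in untreated cells was -8.22 for Inhba and -5.10 for Tgfb3. It was -3.84 for Thbs1 and -3.87 for Grem1, which under the KO title were 3.61-fold and 4.56-fold higher without LPS, and 3.96-fold and 3.20-fold lower with it. All 4 were higher, within each treatment, in the library with the higher Lyz1 level (32.9 CPM untreated and 33.1 CPM after LPS, against 2.86 and 2.63 CPM). That match follows from the direction of their differences. Fn1, of the target list and named after its values were seen, went the other way. It was at 8.44 and 4.09 CPM untreated and at 2.91 and 9.55 CPM after LPS (titles WT and KO). Smad7, Tgfbr2 and Bambi also stood higher, within each treatment, in the library with the lower Lyz1 level. Tgfb1, Smad3, Smad4 and Smad6 stood higher in the library with the higher Lyz1 level. None of these further genes passed the 2-fold rule in both treatments. The part of the labels in these differences was not tested.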

How the results depend on the processing

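Library totals in place of TMM moved the median log2 ratio over all genes by -0.60 between libraries titled WT with and without LPS, by -0.46 between those titled KO and by -0.11 for KO against WT untreated. The share of calls that were higher went from 50.7 to 22.2%, from 45.04 to 22.6% and from 60.9 to 48.4% in these comparisons. In the additive LPS effect, library totals turned Smad3 to -0.39, Smad4 to -0.22, Tgfb1 to -0.050 and Tgfbr2 to -0.11, and passed 3 of the 10 genes (Tgfbr1, Smad6 and Smad7) where TMM passed 1. DESeq2, limma-voom and the treatment term alone passed 2 (Smad2 and Smad7), and no expression filter passed 5. Over all genes the LPS effect passed 2027 with edgeR, 4059 with library totals, 3797 without the filter and 4485 with the treatment term alone, and the title effect 0, with 2 without the filter. Title effects that turned sign, none past the threshold, were Inhba 0.15 and Tgfb3 -0.092 with DESeq2, Smad6 -0.012 with library totals and Smad7 -0.10 with limma-voom. On log2(FPKM + 1), which shrinks low genes, 1 gene rather than 2 was called for KO against WT untreated and 3 rather than 5 for LPS between libraries titled KO, and at 1.5-fold 4 rather than 2 were called between libraries titled WT and 7 rather than 5 between those titled KO. With library totals the 2-fold rule added Tgfbr1 between libraries titled WT (3 called) and lost Smad2 between those titled KO (4 called). Beyond the effect of the pseudocount, the cause of these shifts was not tested. No paired analysis was possible because the labels carry no replicate numbers to pair by; title is already a term of the additive model. Leaving out a library leaves that model no residual degrees of freedom, and with the treatment term alone it was not run. Counting error limits Inhba at 3 counts and Tgfb3 at 15 counts, where the intervals are wide.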
